A study of Mus musculus with 8 samples.

Results

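The collagen genes of mouse embryonic fibroblasts were examined for differences between cells that lacked the kinase genes Tbk1, Ikbke or both and cells with neither deletion, and for a response to transfected double-stranded DNA. All genes whose symbol has the form Col, number, a, number were taken from the probe sets annotated to 1 symbol, and each gene was read from its probe set with the highest mean over all 8 arrays. This gave 36 collagen genes, covered by 58 probe sets, of 12393 genes measured. The cells were Tbk1-/-, Ikbke-/-, Tbk1-/- Ikbke-/- and WT (Tbk1+/+ Ikbke+/+), all of strain C57BL/6 x 129Ola. Cells of each genotype were examined 4 h after transfection with B-DNA, which is poly(dA-dT)-poly(dT-dA), or after mock transfection, with 1 array for each of the 8 combinations. The labels give neither the age nor the number of embryos, and nothing in them says that the arrays came from separate cultures or embryos. Each genotype may thus stand for a single cell line, and a p-value speaks to the spread among these arrays alone. That spread may be in part technical and in part a response to B-DNA that differed between genotypes.

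Values are signals, the brightness of a probe set on a linear scale, brought to a common trimmed mean of 500 on every array. A signal under 122, the 40th percentile of all signals, was taken as the floor below which levels were not ordered, and ratios were formed after such signals were set to it. In every list of signals the value of the B-DNA array is given before that of the mock array. Genotypes were compared with limma, fitted over all 8 arrays and 9626 genes with genotype and treatment as terms, and a difference was called at a Benjamini-Hochberg adjusted p under 0.05. Differences are on the log2 scale with the standard error (SE) of the fit, and each genotype is represented by n = 2 arrays that differ in treatment.

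Collagens are trimers of chains that wind into a triple helix. The fibrillar types I, II, III, V and XI assemble into the fibrils that give connective tissue its strength, and fibroblasts are a main source of types I, III and V. Type IV forms the sheet-like network of basement membranes, with which types VII, XV and XVIII are associated. Cartilage is built on type II fibrils that also hold type XI within and type IX on their surface, while type X belongs to cartilage whose cells have enlarged before bone forms. The products of Tbk1 and Ikbke are sister kinases of the innate immune response, which they join to interferon production when nucleic acid reaches the cytosol.

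By these roles 9 of the genes were fibrillar (Col1a1, Col1a2, Col2a1, Col3a1, Col5a1, Col5a2, Col5a3, Col11a1 and Col11a2) and 9 belonged to basement membranes (Col4a1 to Col4a6, Col7a1, Col15a1 and Col18a1). The cartilage class held 7 (Col2a1, Col9a1, Col9a2, Col9a3, Col10a1, Col11a1 and Col11a2), of which Col2a1, Col11a1 and Col11a2 are also fibrillar. The other 14 were the type VI chains, the fibril-associated collagens, the transmembrane collagens and Col8a1 and Col26a1.

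The stretches before the start sites of 6 genes are shown because the results turn on them. Col9a1, Col9a2, Col11a1 and Col11a2 are cartilage genes that stood high in Ikbke-/- cells, and Col4a5 and Col4a6 are neighbours on chromosome X that differed between genotypes. Each is the 250 bases before an annotated start in RefSeq on GRCm38.p6, read 5′ to 3′ on the strand of the gene. Except for Col9a2, the annotated span of the gene begins within the window, so part of the window lies inside the gene. They lie at chr1:24177360-24177609, chr4:121039316-121039565, chr3:114030290-114030539, chr17:34038888-34039137 and chrX:141475169-141475418 on the plus strand and at chrX:141474077-141474326 on the minus strand. Capitals mark the GC box GGGCGG, the TATA box TATAAA and the CCAAT box CCAAT, each sought on both strands, so that CCGCCC and ATTGG are matches on the other strand.
Col9a1: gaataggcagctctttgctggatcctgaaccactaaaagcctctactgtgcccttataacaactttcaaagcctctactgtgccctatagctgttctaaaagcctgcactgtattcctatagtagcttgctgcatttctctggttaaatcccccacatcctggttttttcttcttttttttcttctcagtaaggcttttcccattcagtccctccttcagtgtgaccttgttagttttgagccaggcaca
Col9a2: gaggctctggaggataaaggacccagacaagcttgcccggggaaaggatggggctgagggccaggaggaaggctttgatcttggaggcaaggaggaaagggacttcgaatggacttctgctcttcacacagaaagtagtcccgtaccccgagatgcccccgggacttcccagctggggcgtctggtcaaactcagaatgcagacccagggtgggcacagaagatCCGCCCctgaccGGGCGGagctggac
Col11a1: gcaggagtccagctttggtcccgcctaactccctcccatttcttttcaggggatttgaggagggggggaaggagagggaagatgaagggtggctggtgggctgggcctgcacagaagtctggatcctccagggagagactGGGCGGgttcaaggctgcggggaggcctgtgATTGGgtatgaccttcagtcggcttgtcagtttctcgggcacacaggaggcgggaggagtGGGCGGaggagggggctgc
Col11a2: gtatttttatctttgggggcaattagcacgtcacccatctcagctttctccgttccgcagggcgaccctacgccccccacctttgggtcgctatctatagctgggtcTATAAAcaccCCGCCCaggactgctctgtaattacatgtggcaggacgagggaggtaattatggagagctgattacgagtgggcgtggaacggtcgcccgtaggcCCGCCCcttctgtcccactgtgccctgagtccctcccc
Col4a5: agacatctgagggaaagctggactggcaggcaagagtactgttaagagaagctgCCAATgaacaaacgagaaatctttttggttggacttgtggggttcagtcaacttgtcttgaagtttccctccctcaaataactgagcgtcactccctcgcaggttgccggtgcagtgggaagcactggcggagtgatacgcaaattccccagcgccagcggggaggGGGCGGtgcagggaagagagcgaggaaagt
Col4a6: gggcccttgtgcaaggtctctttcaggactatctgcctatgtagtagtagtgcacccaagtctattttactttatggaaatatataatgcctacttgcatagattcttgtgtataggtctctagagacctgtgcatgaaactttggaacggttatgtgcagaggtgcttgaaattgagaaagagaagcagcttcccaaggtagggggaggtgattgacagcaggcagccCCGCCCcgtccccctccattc
No matches overlapped in these windows. Col9a2, Col11a1 and Col11a2 hold 2 GC boxes each, Col4a5 and Col4a6 hold 1 each, and the Col9a1 window shown holds none of the motifs. Col9a1 has a second window in the table, at chr1:24194953-24195202, which is not shown and holds 1 CCAAT box. Of 32851 promoter windows of the same length, 32.7% hold a GC box, 12.4% a TATA box and 33.8% a CCAAT box. The letters ACAAAG and ACAATG, which Sox proteins such as the cartilage regulator Sox9 can bind, occur in 16.5% and 10.7% of all windows and in none of the 6 shown. Among the 27 collagen genes with a window in the table, ACAAAG occurs in 3 (Col3a1, Col10a1 and Col20a1), ACAATG in 0, the GC box in 15, the TATA box in 5 (Col3a1, Col10a1, Col11a2, Col13a1 and Col17a1) and the CCAAT box in 12. A match describes the letters and not a bound site. Col1a1, Col2a1, Col4a3, Col5a2, Col9a3, Col12a1, Col14a1, Col22a1 and Col26a1 were without an entry.

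Before the collagens were compared, the arrays were checked against their labels. Tbk1 read 305 and 226 in Tbk1-/- cells, 910.0 and 472 in Ikbke-/- cells, 389.6 and 290.0 in Tbk1-/- Ikbke-/- cells, against 989 and 501 in WT cells, so it was lower in both genotypes without Tbk1 at either treatment. Ikbke was under the floor on all arrays, at 12.8 to 42.2, and checks nothing. Xist, the RNA of the inactive X chromosome of female cells, read 3149 and 2950.1 in Tbk1-/- cells, 161 and 138 in Ikbke-/- cells, 181 and 209 in Tbk1-/- Ikbke-/- cells, against 3766 and 3002 in WT cells, and the Y-linked Eif2s3y was under the floor in Tbk1-/- and WT cells and at 153 to 287 in both genotypes without Ikbke. Loss of Ikbke and sex therefore cannot be told apart in these cells. Vim, a mesenchymal filament gene, was high on all arrays (22116 to 26773). Of 9 fibroblast markers, 6 reached 244.3 on both Tbk1-/- arrays and all 9 on every other array; Lum and Prrx1 were under the floor in Tbk1-/- cells. The summed signal of 18 macrophage and leukocyte markers was 1923 and 1776 in Tbk1-/- cells, 1657 and 1536 in Ikbke-/- cells, 1604 and 1576 in Tbk1-/- Ikbke-/- cells, against 5576 and 15491 in WT cells. Of those 18 markers, 11 and 13 reached 244.3 on the WT arrays and 1 or 2 on each other array, and their part in the differences from WT below was not tested.

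Of the 36 collagen genes, 32 reached the floor on at least 1 array and entered the tests, and 21 were above it on every array. Col4a4 of basement membranes, the transmembrane collagens Col13a1 and Col17a1, and Col22a1 of tissue junctions stayed under 122 on all 8 arrays, the highest reading being 95.7 for Col13a1. The other 11 crossed the floor, and the counts over the 32 are therefore not counts over all collagens. Col4a3 (52.5 to 152), Col19a1 (26.1 to 157) and Col20a1 (48.5 to 143) never reached 244.3, the minimum for a count of 2-fold changes, and were called in no comparison. Col9a2 and Col25a1 never reached it either.

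**Figure D1:**
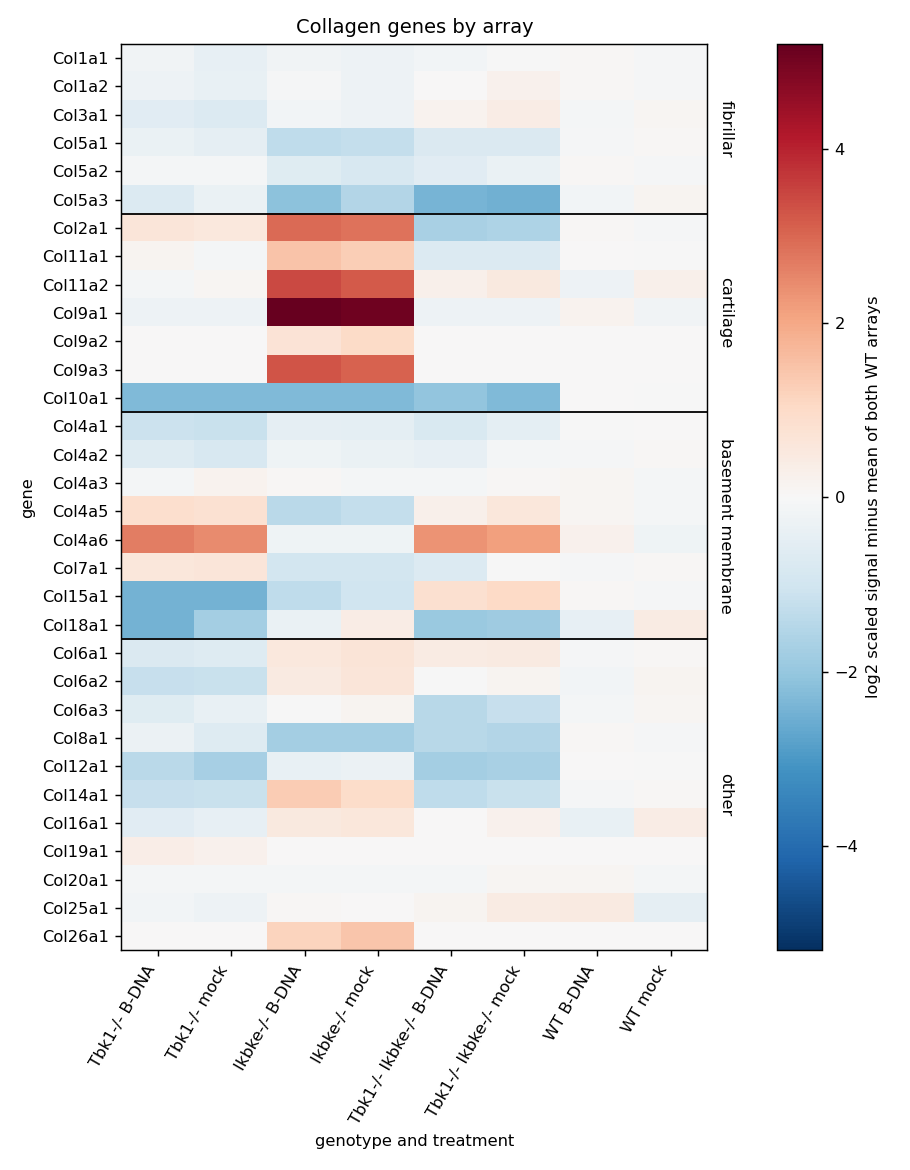
Colour shows the log2 signal of 32 collagen genes on each of the 8 arrays minus the mean of both WT arrays, with signals under the floor set to it; rows are grouped by class and columns by genotype and treatment. Columns of 1 genotype look alike at both treatments, the cartilage genes other than Col10a1 stand out in red in both Ikbke-/- columns, and Col4a6 does so in the columns of both genotypes without Tbk1.

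No collagen passed either threshold between B-DNA and mock transfection. None of the 32 genes differed by 2-fold or more between the B-DNA and mock arrays of any genotype, where 0.696% of all genes did in Tbk1-/- cells, 5.19% in Ikbke-/- cells, 1.29% in Tbk1-/- Ikbke-/- cells and 5.16% in WT cells (higher signal at 244.3 or more). On the signals as deposited 2 collagens did so in WT cells, Col16a1 and Col18a1, both lower with B-DNA. Averaged over genotypes, limma called 0 of the 32 and 0 of 9626 genes (0%), with 2 collagens and 761 genes at an unadjusted p under 0.05. The error of that average holds any difference of the B-DNA response between genotypes. As it called no gene at all, its 0 for collagens cannot show that they did not respond. The single pairs of arrays carry no test of their own.

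The widest B-DNA over mock ratios among the 21 genes above the floor everywhere were those of Col18a1 and Col25a1. Col18a1, whose protein carries the endostatin fragment, read 405 and 655 in Tbk1-/- cells, 1729 and 2879 in Ikbke-/- cells, 585 and 627 in Tbk1-/- Ikbke-/- cells, against 1679.6 and 2953 in WT cells. Its B-DNA signal was the lower of the pair in all 4 genotypes, by -0.69 on the log2 scale in Tbk1-/- cells, -0.74 in Ikbke-/- cells, -0.098 in Tbk1-/- Ikbke-/- cells and -0.81 in WT cells. Averaged over the genotypes the difference was -0.59 ± 0.15 (limma, adjusted p = 0.605). Col25a1, a transmembrane collagen first known from brain, read 162 and 148 in Tbk1-/- cells, 183 and 177 in Ikbke-/- cells, 195 and 239 in Tbk1-/- Ikbke-/- cells, against 244 and 128 in WT cells, so that the WT ratio of 0.93 on the log2 scale came from 2 arrays near the floor.

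These genes differed more between the cells of different genotype than between treatments. The range of the 4 genotype means exceeded the largest B-DNA over mock difference of any genotype in 20 of the 21 genes (95.2%), against 4362 of 6665 genes above the floor on all arrays (65.4%). The median genotype range was 1.37 on the log2 scale for the 21 collagens and 0.64 for the 6665 genes, and 15 of the 21 (71.4%) had a range of 2-fold or more, against 23.7%. The medians of the largest treatment difference were 0.29 and 0.47.

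**Figure D2:**
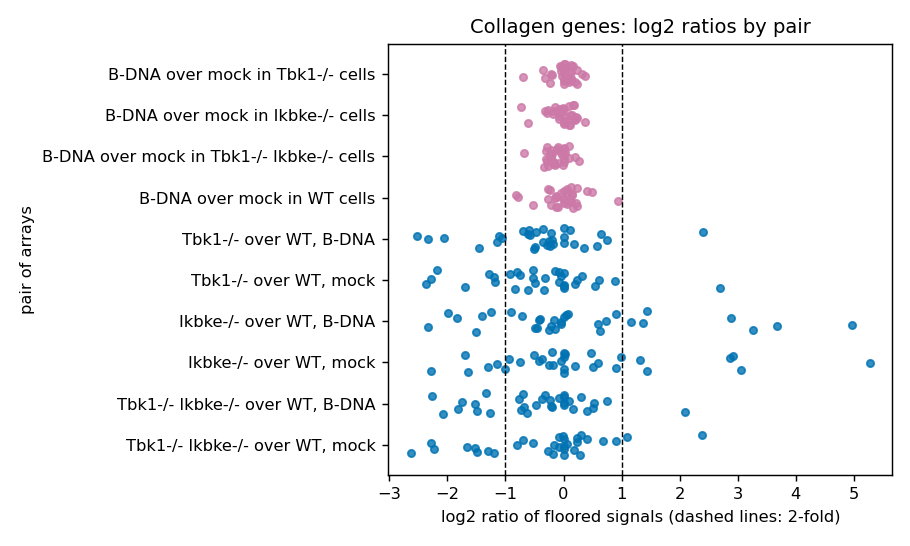
Each point is 1 of 32 collagen genes, placed by its log2 ratio of floored signals between 2 arrays; the upper 4 rows are B-DNA over mock within a genotype and the lower 6 are a genotype over WT at the same treatment. All points of the upper rows lie between the dashed lines at 2-fold, while the lower rows reach from under -2 to over 5.

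Among cartilage collagens, limma called 6 of 7 higher in Ikbke-/- cells than in WT cells and 1, Col10a1, lower. Over all 32 collagens it called 14 in this comparison, 8 higher and 6 lower, where 2.99% of all genes were called, 1.25% higher and 1.75% lower. Of those called higher, Col9a2, Col9a3 and Col26a1 passed the floor, and so entered the tests, through the Ikbke-/- arrays alone. Their direction was thus set by the filter, and their calls are no separate support. The median log2 difference of the cartilage class was 2.88, with floored genes at their bound, against -0.05 for all genes, and it stayed between 1.52 and 3.40 in every alternative that kept all 8 arrays and between 2.83 and 2.93 when any 1 array was left out. Without an array the calls of the class fell to 0 (either Ikbke-/- array), 1 (either WT array) or 4 (any other).

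Col2a1, the chain of type II collagen and the main collagen of cartilage, read 5232 and 4891 in Tbk1-/- cells, 25950.4 and 23463 in Ikbke-/- cells, 1047 and 1111 in Tbk1-/- Ikbke-/- cells, against 3516 and 3207 in WT cells. Both Ikbke-/- arrays stood above all others, and both Tbk1-/- Ikbke-/- arrays below. The difference from WT was 2.88 ± 0.12 in Ikbke-/- cells (limma, adjusted p = 0.00185), which is 7.35-fold higher, and -1.64 ± 0.12 in Tbk1-/- Ikbke-/- cells (limma, adjusted p = 0.00494), which is 3.11-fold lower. In Tbk1-/- cells it was 0.59 ± 0.12 (limma, adjusted p = 0.0879), not called.

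The 3 chains of type IX collagen, which decorates type II fibrils, were high in Ikbke-/- cells alone. Col9a1 read 84.4 and 91.8 in Tbk1-/- cells, 5292 and 4957 in Ikbke-/- cells, 99.5 and 122 in Tbk1-/- Ikbke-/- cells, against 170.1 and 129 in WT cells. Only the Ikbke-/- arrays stood far above the floor. It was 34.6-fold higher in Ikbke-/- than in WT cells, a log2 difference of 5.11 ± 0.15 (limma, adjusted p = 0.00107). A second Col9a1 probe set, above the floor on every array, gave a smaller difference of 2.90. Col9a3 read 31.0 and 30.6 in Tbk1-/- cells, 1177 and 1011 in Ikbke-/- cells, 38.9 and 42.2 in Tbk1-/- Ikbke-/- cells, against 48.3 and 39.5 in WT cells, with the 6 arrays other than Ikbke-/- under the floor. It was at least 8.93-fold higher in Ikbke-/- than in WT cells (3.16 ± 0.12, limma, adjusted p = 0.00145). Col9a2 read 5.98 and 5.69 in Tbk1-/- cells, 202 and 243.9 in Ikbke-/- cells, 3.14 and 7.51 in Tbk1-/- Ikbke-/- cells, against 9.49 and 3.80 in WT cells, so only the Ikbke-/- arrays passed the floor and neither reached 244.3. Its bound was at least 1.82-fold (0.86 ± 0.13, limma, adjusted p = 0.0425). For Col9a2, Col9a3 and other genes with floored arrays the fit had no measured spread on those arrays.

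Both type XI chains, which lie within the cartilage fibril and set its width, showed the same order of genotypes at the top. Col11a1 read 4168 and 3529 in Tbk1-/- cells, 10453 and 9283 in Ikbke-/- cells, 2322 and 2284 in Tbk1-/- Ikbke-/- cells, against 3875 and 3707 in WT cells. The difference of Ikbke-/- from WT cells was 1.38 ± 0.12 (limma, adjusted p = 0.0116), and that of Tbk1-/- Ikbke-/- cells was -0.72 ± 0.12 (limma, adjusted p = 0.0242). Col11a2 read 138 and 159 in Tbk1-/- cells, 1567 and 1333 in Ikbke-/- cells, 176 and 208 in Tbk1-/- Ikbke-/- cells, against 83.5 and 177 in WT cells. It was at least 9.84-fold higher in Ikbke-/- than in WT cells (3.30 ± 0.20, limma, adjusted p = 0.00518), since the WT B-DNA array was under the floor.

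Col10a1, the collagen of enlarged cartilage cells, went the other way. It read 21.0 and 18.8 in Tbk1-/- cells, 61.1 and 23.4 in Ikbke-/- cells, 148 and 26.8 in Tbk1-/- Ikbke-/- cells, against 619 and 590.3 in WT cells. Both WT arrays were above every other array, and only the B-DNA array of Tbk1-/- Ikbke-/- cells also passed the floor. It was at least 4.95-fold lower than WT in Tbk1-/- cells (limma, adjusted p = 0.00343), at least 4.95-fold lower in Ikbke-/- cells (limma, adjusted p = 0.004) and at least 4.50-fold lower in Tbk1-/- Ikbke-/- cells (limma, adjusted p = 0.00446).

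**Figure D3:**
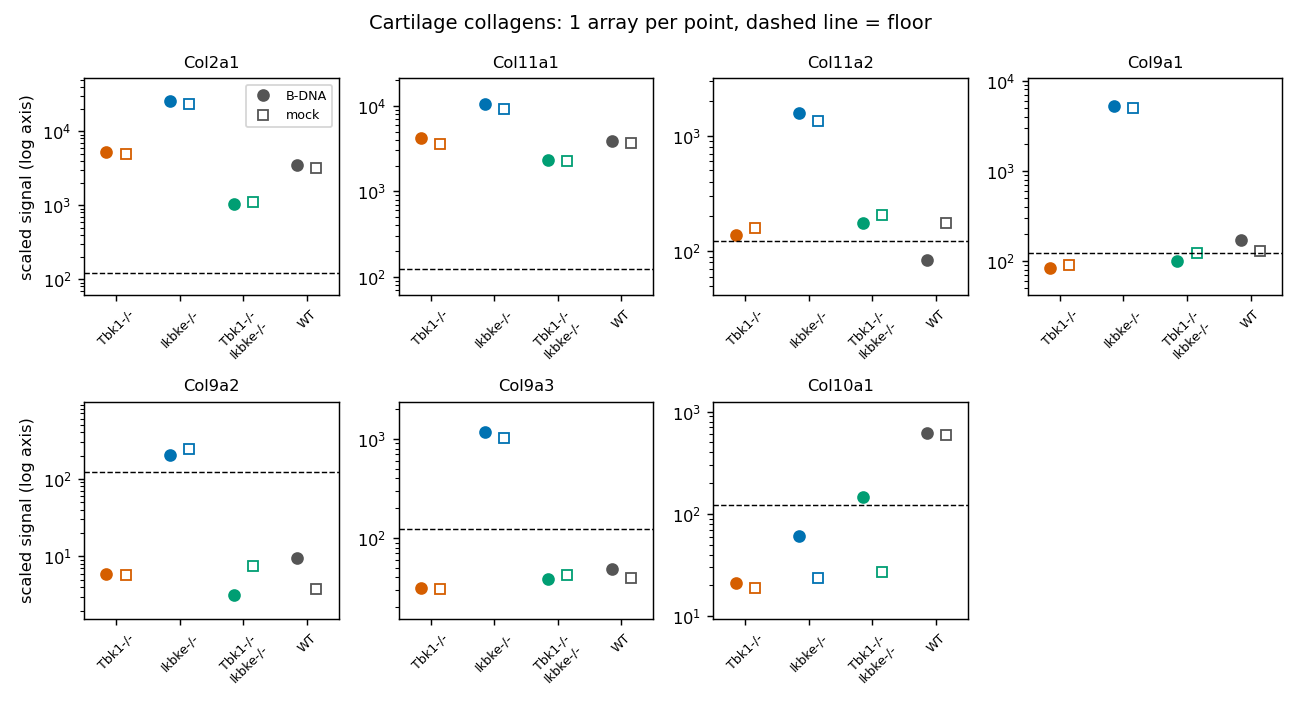
Scaled signal (log axis) of the 7 cartilage collagens, 1 array per point, filled circles for B-DNA and open squares for mock; the dashed line is the floor of 122. The Ikbke-/- arrays are the highest in 6 panels, and the WT arrays in the Col10a1 panel.

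Loss of Tbk1 on top of Ikbke went with low cartilage collagens. Between Tbk1-/- Ikbke-/- and Ikbke-/- cells, a comparison added after the values were seen, limma called 16 collagens (4 higher and 12 lower), where 19.5% of all genes were called (13.1% higher and 6.41% lower), and 6 of the 7 cartilage genes were among the lower. Of these, Col9a2 and Col9a3 could only come out lower, since they passed the floor in Ikbke-/- cells alone. Col2a1 was 22.9-fold lower (-4.52 ± 0.12, limma, adjusted p = 0.000572) and Col9a1 at least 41.9-fold lower (-5.39 ± 0.15, limma, adjusted p = 0.000572). That bound holds for the Col9a1 probe set used. A second one showed a smaller gap, at 259.9 and 261 in Tbk1-/- Ikbke-/- cells and 2565 and 1959 in Ikbke-/- cells. Col11a1 was 4.28-fold lower, Col11a2 7.55-fold lower and Col9a3 at least 8.93-fold lower. Against WT, cartilage collagens had 0 called higher and 3 lower (Col2a1, Col10a1 and Col11a1) in Tbk1-/- Ikbke-/- cells, where 13.7% of all genes were called (8.45% higher and 5.24% lower). In Tbk1-/- cells they had 0 higher and 1 lower (Col10a1), where 2.88% were called (1.14% higher and 1.73% lower). All 3 comparisons with WT use the same WT arrays. Between Tbk1-/- Ikbke-/- and Ikbke-/- cells the 16 calls became 3 without the Ikbke-/- B-DNA array, 10 without the Ikbke-/- mock array and 9 without the Tbk1-/- Ikbke-/- mock array, and 13 or 14 without any other.

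Of 10 tested chondrocyte markers that are not collagens, limma called 6 higher and 0 lower in Ikbke-/- cells (Sox9, Acan, Matn1, Matn3, Matn4 and Cnmd), where 1.25% and 1.75% of all genes were. Matn1 read 1746 and 1497 in Ikbke-/- cells and passed the floor on those arrays alone. Its direction was thus set by the filter, and its call is no separate support. In Tbk1-/- cells limma called 1 higher (Cnmd) and 1 lower (Acan), where 1.14% and 1.73% of all genes were. In Tbk1-/- Ikbke-/- cells it called 0 higher and 2 lower (Acan and Comp), where 8.45% and 5.24% of all genes were. Of the others tested, Comp, Sox6, Ihh and Snorc were not called in Ikbke-/- cells. The summed signal over 13 genes, of which Cnmd was the brightest in Ikbke-/- cells, was 4037 and 4399.8 in Tbk1-/- cells, 37761 and 35102 in Ikbke-/- cells, 1313 and 1357 in Tbk1-/- Ikbke-/- cells, against 2470.4 and 2432 in WT cells. Of the 13, 8 and 7 reached 244.3 on the Ikbke-/- arrays, 3 on each Tbk1-/- array, 0 on each Tbk1-/- Ikbke-/- array and 2 on each WT array. Matn4, a cartilage matrix protein, read 70.0 and 81.0 in Tbk1-/- cells, 9343 and 7593 in Ikbke-/- cells, 206 and 148 in Tbk1-/- Ikbke-/- cells, against 233 and 238 in WT cells. Acan, the aggregating proteoglycan of cartilage, read 463 and 434 in Tbk1-/- cells, 4887 and 4651 in Ikbke-/- cells, 116 and 136 in Tbk1-/- Ikbke-/- cells, against 795 and 1009.8 in WT cells. Cnmd, which encodes chondromodulin, read 2359 and 2434 in Tbk1-/- cells, 19434 and 18912 in Ikbke-/- cells, 3.14 and 4.29 in Tbk1-/- Ikbke-/- cells, against 117 and 44.6 in WT cells. It was thus also well above the floor in Tbk1-/- cells, where the probe sets used for the 3 type IX genes were under it. Sox9 read 455 and 836 in Tbk1-/- cells, 678 and 999.9 in Ikbke-/- cells, 227 and 244 in Tbk1-/- Ikbke-/- cells, against 277 and 271 in WT cells, above WT in both single knockouts. Sox5, Hapln1, Chad, Ihh and Snorc reached 244.3 on no array. The part of chondrocyte-like cells in the collagen signals was not tested, and in bulk RNA more cells of a type and more RNA per cell cannot be told apart.

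The type IV pair on chromosome X differed between genotypes, with a range of genotype means of 2.79 on the log2 scale for Col4a6 and 2.15 for Col4a5, against 3.38 for Col15a1 and 2.12 for Col18a1 of the same class. Col4a5 and Col4a6 encode chains that join in 1 trimer of smooth muscle and epithelial basement membranes, and they are transcribed apart from each other with starts 1343 bases apart. Col4a6 read 908 and 789 in Tbk1-/- cells, 83.6 and 88.3 in Ikbke-/- cells, 729.6 and 637 in Tbk1-/- Ikbke-/- cells, against 171 and 94.0 in WT cells, so all 4 arrays without Tbk1 stood above all 4 with it. It was at least 5.86-fold higher than WT in Tbk1-/- cells (2.55 ± 0.15, limma, adjusted p = 0.0039) and at least 4.72-fold higher in Tbk1-/- Ikbke-/- cells (2.24 ± 0.15, limma, adjusted p = 0.00446). Both Ikbke-/- arrays and the WT mock array were under the floor.

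Col4a5 read 1945 and 1837 in Tbk1-/- cells, 406 and 447 in Ikbke-/- cells, 1294 and 1588 in Tbk1-/- Ikbke-/- cells, against 1157 and 989 in WT cells. Here too the 4 arrays without Tbk1 lay above the 4 with it, but the lowest genotype was Ikbke-/-, at -1.33 ± 0.16 from WT (limma, adjusted p = 0.0281). The differences from WT were 0.82 in Tbk1-/- and 0.42 in Tbk1-/- Ikbke-/- cells and were not called (limma, adjusted p = 0.0852 and 0.165). Both genes are X-linked, and Xist was high in Tbk1-/- and WT cells, so the chromosome set of the cells changes within each side of the Tbk1 comparison. The part of sex in these differences was not tested. The epithelial keratin Krt19 read 901 and 995 in Tbk1-/- cells, 9.40 and 11.2 in Ikbke-/- cells, 10.0 and 13.6 in Tbk1-/- Ikbke-/- cells, against 30.4 and 16.3 in WT cells, high in Tbk1-/- cells, while Col17a1 of epithelial anchoring junctions was under the floor throughout. Of the 6 epithelial markers tested Krt19 was the 1 called in Tbk1-/- cells, where 2.88% of all genes were called. Krt19 passed the floor on the Tbk1-/- arrays alone, so the direction of its call was set by the filter. Cdh1, Epcam and Krt7 were under the floor on every array. The part of Krt19-expressing cells was not tested either.

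Col4a1 and Col4a2, head-to-head neighbours on chromosome 8 whose starts lie 21 bases apart and whose products form the common type IV trimer, were highest in WT cells. Col4a1 read 3381 and 3337 in Tbk1-/- cells, 5370.1 and 5272 in Ikbke-/- cells, 4302 and 5246 in Tbk1-/- Ikbke-/- cells, against 7337 and 7532 in WT cells, with both WT arrays above all others on this probe set but not on its second. It was 2.21-fold lower than WT in Tbk1-/- cells (-1.15 ± 0.13, limma, adjusted p = 0.0218) and 1.56-fold lower in Tbk1-/- Ikbke-/- cells (-0.65 ± 0.13, limma, adjusted p = 0.0391). Col4a2 read 3125 and 2787 in Tbk1-/- cells, 4286 and 3969 in Ikbke-/- cells, 3704 and 4665 in Tbk1-/- Ikbke-/- cells, against 4779 and 5290.0 in WT cells. Its genotypes stood in the same order at the ends, but at -0.77 ± 0.16 from WT in Tbk1-/- cells it was not called (limma, adjusted p = 0.0963).

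Col15a1 and Col18a1, the related collagens of the multiplexin family, did not move together. Col15a1 read 19.5 and 86.5 in Tbk1-/- cells, 265 and 330.1 in Ikbke-/- cells, 1187 and 1355 in Tbk1-/- Ikbke-/- cells, against 705 and 633 in WT cells. Tbk1-/- cells were under the floor and Tbk1-/- Ikbke-/- cells were the highest, without overlap with any other genotype. Its difference from WT was at least 5.47-fold lower in Tbk1-/- cells (limma, adjusted p = 0.00444), -1.17 ± 0.15 in Ikbke-/- cells (limma, adjusted p = 0.0333) and 0.92 ± 0.15 in Tbk1-/- Ikbke-/- cells (limma, adjusted p = 0.0251). Col18a1, whose signals are given above, was instead 4.32-fold lower than WT in Tbk1-/- cells (-2.11 ± 0.21, limma, adjusted p = 0.0148) and 3.68-fold lower in Tbk1-/- Ikbke-/- cells (-1.88 ± 0.21, limma, adjusted p = 0.0106). In Ikbke-/- cells its difference was 0.00 ± 0.21.

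Col7a1, the anchoring fibril collagen beneath epithelia, read 538 and 553 in Tbk1-/- cells, 185 and 187 in Ikbke-/- cells, 223 and 359 in Tbk1-/- Ikbke-/- cells, against 345 and 378 in WT cells. Tbk1-/- arrays were above and Ikbke-/- arrays below all others, yet no comparison with WT was called (limma, lowest adjusted p = 0.0884). Over the class of 8 tested genes, limma called 1 higher and 3 lower in Tbk1-/- cells and 0 higher and 2 lower in Ikbke-/- cells. In Tbk1-/- Ikbke-/- cells 2 were higher and 2 lower. Over all genes the shares called higher were 1.14%, 1.25% and 8.45% in the 3 genotypes, and those called lower 1.73%, 1.75% and 5.24%. The class medians were -0.36, -0.38 and -0.15, against -0.01, -0.05 and 0.04 for all genes.

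**Figure D4:**
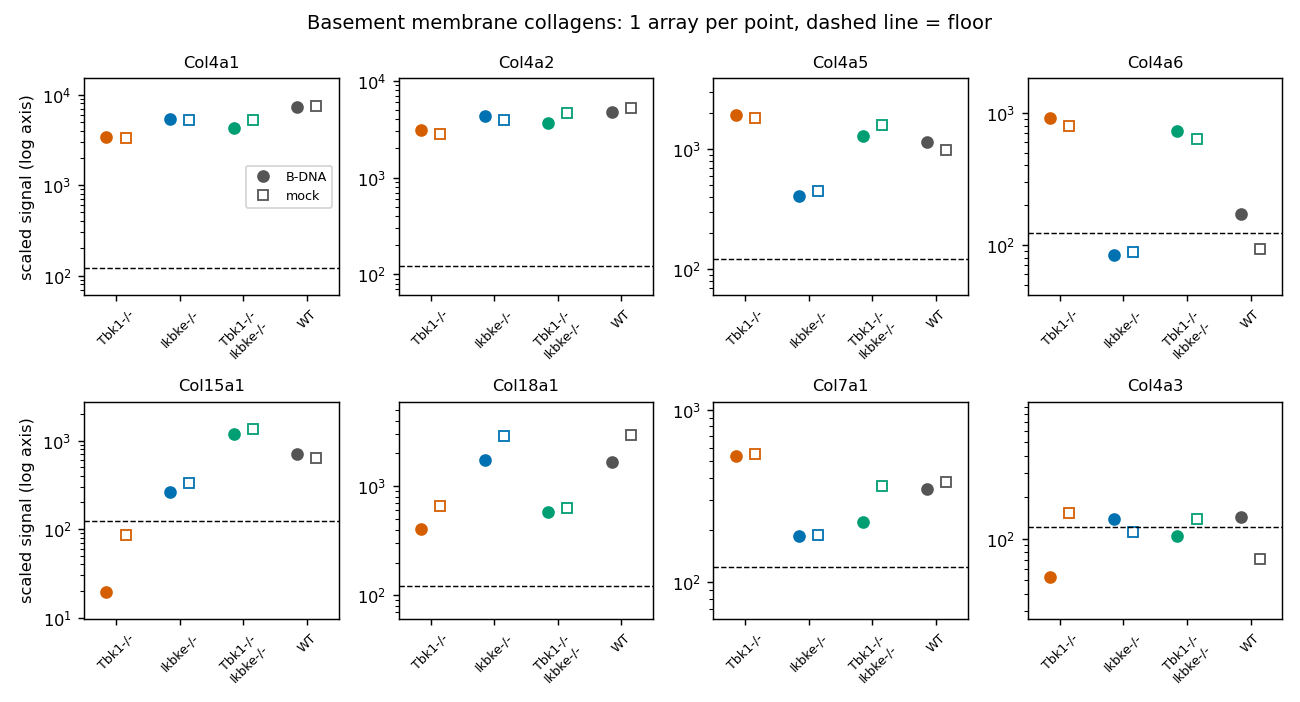
Scaled signal (log axis) of 8 basement membrane collagens, 1 array per point, filled circles for B-DNA and open squares for mock; the dashed line is the floor of 122. Col4a6 is at 637 or more on the 4 arrays without Tbk1, Col15a1 is under the floor in Tbk1-/- cells, and Col18a1 is low in both genotypes without Tbk1.

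None of the main fibroblast collagens of types I and III was called against WT. Col1a1, a chain of type I collagen, read 24496 and 20852 in Tbk1-/- cells, 24624 and 23144 in Ikbke-/- cells, 25427 and 27356 in Tbk1-/- Ikbke-/- cells, against 29237 and 26349.8 in WT cells. Col1a2, its partner chain, read 27564 and 25364 in Tbk1-/- cells, 31637 and 27610.2 in Ikbke-/- cells, 33336 and 38879 in Tbk1-/- Ikbke-/- cells, against 35035 and 31526 in WT cells. The genotypes overlapped for Col1a1, and for Col1a2 the Tbk1-/- arrays were below the other 6 by a small margin. The lowest and highest differences from WT were -0.33 and 0.12 for Col1a2, and none was called for either gene (limma, lowest adjusted p = 0.316). A second, dimmer probe set of Col1a1 read 4631 and 5395 in Tbk1-/- cells, 2280.0 and 1978 in Ikbke-/- cells, 1854 and 3623 in Tbk1-/- Ikbke-/- cells, against 2442 and 2855 in WT cells, with the sign turned for Tbk1-/- cells, so the Col1a1 readings of that genotype depend on the probe set.

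Col3a1, the type III chain that accompanies type I in soft tissue, read 11019.6 and 10136 in Tbk1-/- cells, 15031 and 13894 in Ikbke-/- cells, 19028 and 21836 in Tbk1-/- Ikbke-/- cells, against 15445 and 18011 in WT cells. Tbk1-/- arrays were below and Tbk1-/- Ikbke-/- arrays above all others. The differences from WT, -0.66 ± 0.15 in Tbk1-/- and 0.29 ± 0.15 in Tbk1-/- Ikbke-/- cells, were not called (limma, adjusted p = 0.103 and 0.268), and the value of Tbk1-/- Ikbke-/- cells turned to -0.17 on the signals as deposited. Its second probe set gave -1.39 and 0.67 for the same genotypes. Loss of Tbk1 differed between cells without and with Ikbke by 1.15 ± 0.21 for this gene (limma, adjusted p = 0.0292), a comparison added after the values were seen.

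Type V collagen, which is built into type I fibrils and limits their width, was lower in both genotypes without Ikbke. Col5a1 read 12285 and 11197 in Tbk1-/- cells, 6275 and 6595 in Ikbke-/- cells, 9245 and 9283 in Tbk1-/- Ikbke-/- cells, against 14958 and 16164 in WT cells, with WT highest. It was 2.42-fold lower than WT in Ikbke-/- cells (-1.27 ± 0.12, limma, adjusted p = 0.0146) and 1.68-fold lower in Tbk1-/- Ikbke-/- cells (-0.75 ± 0.12, limma, adjusted p = 0.0235). Col5a3 read 2018 and 2578 in Tbk1-/- cells, 759 and 1163 in Ikbke-/- cells, 629 and 589 in Tbk1-/- Ikbke-/- cells, against 3016 and 3636 in WT cells. The 4 arrays without Ikbke lay below the 4 with it, and the fold from WT was 3.52 lower in Ikbke-/- cells (limma, adjusted p = 0.0189) and 5.44 lower in Tbk1-/- Ikbke-/- cells (limma, adjusted p = 0.00499). Col5a2 read 15847 and 15874 in Tbk1-/- cells, 11042 and 9737 in Ikbke-/- cells, 11289 and 13713 in Tbk1-/- Ikbke-/- cells, against 18012 and 16419.7 in WT cells. It too was lower on all 4 arrays without Ikbke than on the 4 with it, and its single differences from WT were not called (limma, lowest adjusted p = 0.0893).

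Over the 6 fibrillar collagens outside cartilage, limma called 0 in Tbk1-/- cells, 2 lower in Ikbke-/- cells and 2 lower in Tbk1-/- Ikbke-/- cells, the pair being Col5a1 and Col5a3 each time. At an unadjusted p under 0.05 there were 3 in each of the 3 genotypes. Of all genes 2.88%, 2.99% and 13.7% were called. The class medians were -0.37, -0.47 and -0.27, against -0.01, -0.05 and 0.04 for all genes.

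Type VI collagen, the beaded microfibril around cells, split by chain and genotype. Col6a1 read 5385 and 5646 in Tbk1-/- cells, 13419.7 and 14363 in Ikbke-/- cells, 12333 and 12594 in Tbk1-/- Ikbke-/- cells, against 8685 and 9515 in WT cells. Col6a2, its neighbour on chromosome 10, read 4178 and 4328 in Tbk1-/- cells, 13251 and 14985 in Ikbke-/- cells, 9400.5 and 10502 in Tbk1-/- Ikbke-/- cells, against 8753 and 10536 in WT cells. For both, Tbk1-/- arrays were below and Ikbke-/- arrays above all others. Col6a1 was 1.65-fold lower than WT in Tbk1-/- cells (-0.72 ± 0.11, limma, adjusted p = 0.0428), and Col6a2 was 2.26-fold lower (-1.18 ± 0.11, limma, adjusted p = 0.0147). Col6a3, whose long chain joins both in the trimer, read 6578 and 7754 in Tbk1-/- cells, 9966 and 11329 in Ikbke-/- cells, 3745 and 4511 in Tbk1-/- Ikbke-/- cells, against 9407 and 11107 in WT cells. It was lowest in Tbk1-/- Ikbke-/- cells, 2.49-fold under WT (-1.31 ± 0.11, limma, adjusted p = 0.00538).

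Col8a1, a short-chain collagen of vessel walls and the cornea, read 5188 and 4001 in Tbk1-/- cells, 1872 and 1886 in Ikbke-/- cells, 2354 and 2196 in Tbk1-/- Ikbke-/- cells, against 6645 and 6139.9 in WT cells. It was 3.40-fold lower than WT in Ikbke-/- cells (-1.77 ± 0.14, limma, adjusted p = 0.00969) and 2.81-fold lower in Tbk1-/- Ikbke-/- cells (-1.49 ± 0.14, limma, adjusted p = 0.00709). All 4 arrays without Ikbke were below the 4 with it.

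Both fibril-associated collagens of the type XII and XIV family were low without Tbk1. Col12a1 read 1848 and 1482 in Tbk1-/- cells, 3812 and 4045 in Ikbke-/- cells, 1444 and 1525 in Tbk1-/- Ikbke-/- cells, against 5081 and 4803 in WT cells. It was 2.99-fold lower than WT in Tbk1-/- cells (-1.58 ± 0.15, limma, adjusted p = 0.0132) and 3.33-fold lower in Tbk1-/- Ikbke-/- cells (-1.74 ± 0.15, limma, adjusted p = 0.00584). Col14a1 read 241 and 247 in Tbk1-/- cells, 1367 and 1056 in Ikbke-/- cells, 222 and 246 in Tbk1-/- Ikbke-/- cells, against 531 and 564 in WT cells, so that the 4 arrays without Tbk1 lay below the 4 with it and Ikbke-/- arrays were the highest. Its differences from WT were -1.17 ± 0.17, 1.13 ± 0.17 and -1.23 ± 0.17 in Tbk1-/-, Ikbke-/- and Tbk1-/- Ikbke-/- cells (limma, adjusted p = 0.0385, 0.0412 and 0.0165).

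Col26a1, a secreted collagen first described in testis and ovary, read 12.6 and 36.3 in Tbk1-/- cells, 274 and 332 in Ikbke-/- cells, 57.8 and 27.5 in Tbk1-/- Ikbke-/- cells, against 15.1 and 40.1 in WT cells. Only the Ikbke-/- arrays passed the floor, as for Col9a2 and Col9a3, and it was at least 2.47-fold higher than in WT cells (1.31 ± 0.13, limma, adjusted p = 0.016). Col16a1, a fibril-associated collagen, ranged from 879 to 2011 and was called in no comparison, although both Ikbke-/- arrays were above the other 6. Over the 11 other collagens tested, limma called 0 higher and 4 lower in Tbk1-/- cells, 2 higher and 1 lower in Ikbke-/- cells and 0 higher and 4 lower in Tbk1-/- Ikbke-/- cells, where 2.88%, 2.99% and 13.7% of all genes were called.

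**Figure D5:**
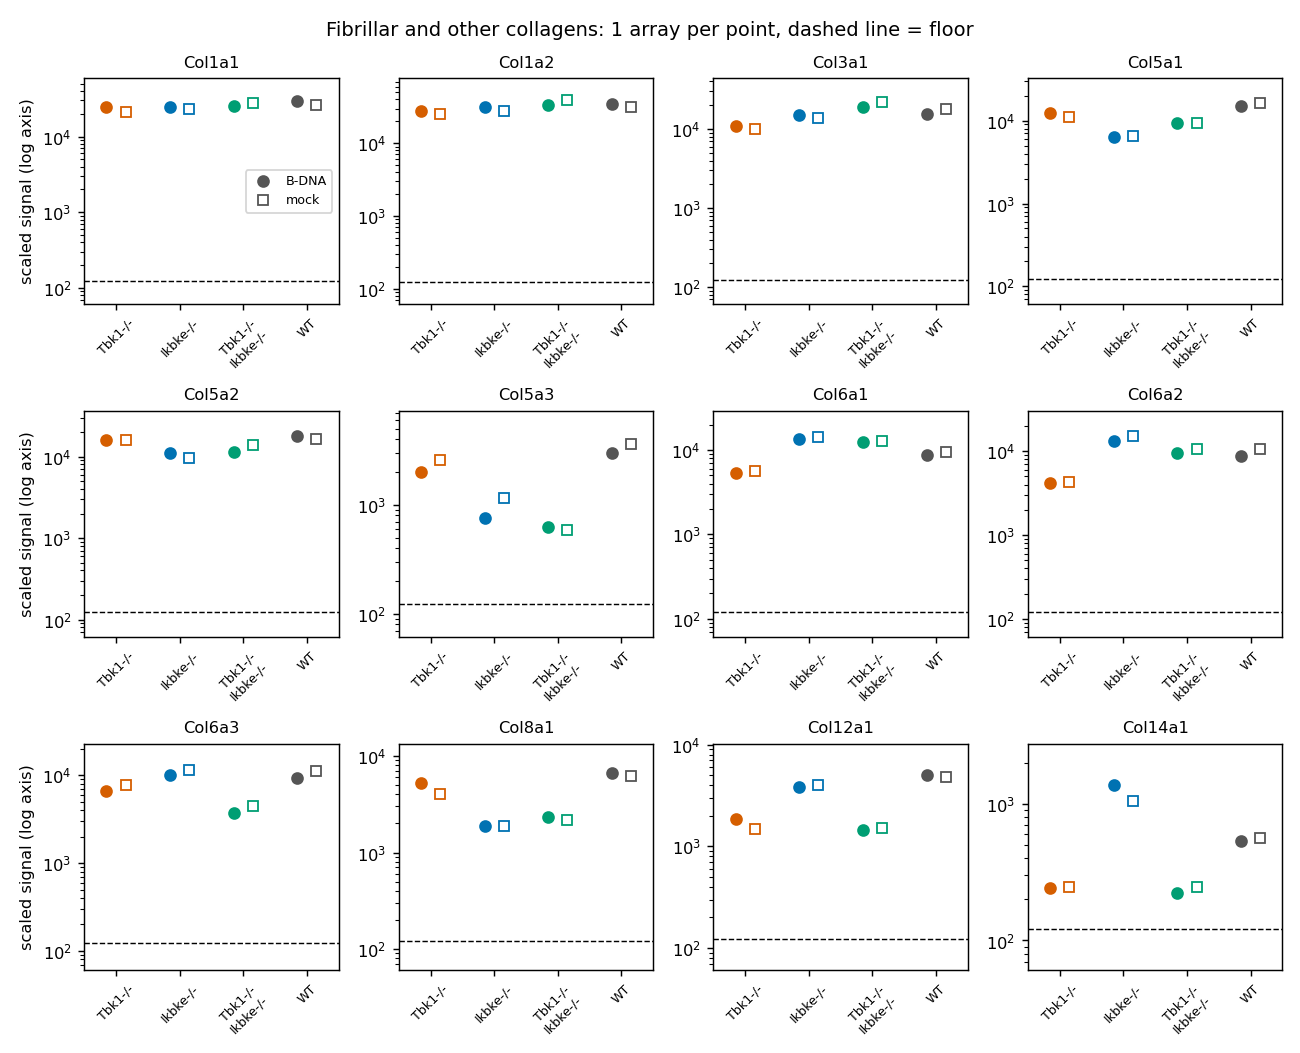
Scaled signal (log axis) of 6 fibrillar and 6 other collagens, 1 array per point, filled circles for B-DNA and open squares for mock; the dashed line is the floor of 122. Col1a1 and Col1a2 lie nearly level over the genotypes, Col5a3 and Col8a1 are low in both genotypes without Ikbke, and Col12a1 and Col14a1 are low in both without Tbk1.

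Counted over all 32 genes, limma called 9 collagens in Tbk1-/- cells (1 higher and 8 lower). In Ikbke-/- cells it called 14 (8 higher and 6 lower), and in Tbk1-/- Ikbke-/- cells 13 (2 higher and 11 lower). The 8 include Col9a2, Col9a3 and Col26a1, whose direction was set by the filter. Of all genes 2.88%, 2.99% and 13.7% were called. The Tbk1-/- split was 1 higher and 2 lower on the signals as deposited and 3 higher and 6 lower after scaling to a common median. By size alone, 2-fold or more from WT at both treatments, there were 8 collagens in Tbk1-/- cells (1 higher and 7 lower), where 3.33% of all genes met this (1.48% higher and 1.86% lower). There were 11 in Ikbke-/- cells (6 higher and 5 lower), where 3.27% did (1.46% and 1.81%), and 9 in Tbk1-/- Ikbke-/- cells (1 higher and 8 lower), where 6.12% did (3.28% and 2.84%).

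The limma calls depended on single arrays. Without either array of Tbk1-/- cells or either WT array the 9 became 0. For Ikbke-/- cells the 14 became 0 without either Ikbke-/- array and 1, Col9a1, without either WT array. For Tbk1-/- Ikbke-/- cells the 13 became 0 without either of their own arrays or either WT array. Without an array of a genotype outside the comparison, limma called 2 or 3 in Tbk1-/- cells, 4 or 5 in Ikbke-/- cells and 8 or 9 in Tbk1-/- Ikbke-/- cells.

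Taken by gene deletion, limma called 16 collagens between the arrays without and with Tbk1 (2 higher and 14 lower), where 7.91% of all genes were called (4.86% higher and 3.04% lower). It called 15 between those without and with Ikbke (7 higher and 8 lower), where 9.04% were (5.24% higher and 3.80% lower). Col9a3 and Col26a1 count in both, with directions set by the filter. Each contrast averages over the state of the other gene, so a call need not hold in the single knockout. Col2a1 counts as lower without Tbk1 (-1.96), yet its difference from WT in Tbk1-/- cells was 0.59. Col15a1 counts as higher without Ikbke (1.10), yet its difference from WT in Ikbke-/- cells was -1.17. Leaving out 1 array, any of the 8, gave 1 (WT mock) to 8 (Tbk1-/- Ikbke-/- mock) for Tbk1 and 0 (Tbk1-/- B-DNA) to 6 (either Tbk1-/- Ikbke-/- array) for Ikbke. Where the genotype means were fitted with additive terms instead, both counts were 0, as were those over all genes. Arrays without Tbk1 did not overlap those with it in 8 collagens, where 6.67% of all genes did not overlap (4.25% higher and 2.42% lower). Col4a5 and Col4a6 were the 2 higher ones, and Col4a1, Col6a3, Col9a1, Col12a1, Col14a1 and Col18a1 the 6 lower ones. On the second Col4a1 probe set the arrays overlapped. For Ikbke the count was 5, where 6.64% of all genes did not overlap (3.69% higher and 2.95% lower), with Col6a1 higher and Col5a1, Col5a2, Col5a3 and Col8a1 lower.

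Set against the 3 other genotypes, both Ikbke-/- arrays stood outside the other 6 in 16 collagens (11 above and 5 below), where 13.5% of all genes did so (4.42% above and 9.06% below). Col9a2, Col9a3 and Col26a1 are among the 11, having passed the floor on those arrays alone. Tbk1-/- arrays stood apart in 12 (4 above and 8 below), where 15.2% did (8.36% above and 6.85% below). Col19a1 is among the 4 above, having passed the floor on the Tbk1-/- arrays alone. Tbk1-/- Ikbke-/- arrays stood apart in 6 (2 above and 4 below), where 31.3% did (21.6% above and 9.71% below). WT arrays stood above the rest in 8 collagens (Col4a1, Col4a2, Col5a1, Col5a2, Col5a3, Col8a1, Col10a1 and Col12a1) and below in 0, where 7.93% of all genes stood apart (4.81% above and 3.12% below). On the second probe sets of Col4a1 and Col5a2 they did not. Those WT arrays are also the ones with the macrophage markers.

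The difference between cells without and with Tbk1 was unlike in cells without and with Ikbke in 14 collagens (5 higher and 9 lower), where 14.6% of all genes were called (9.03% higher and 5.61% lower) by this interaction test of limma. The split was 2 higher and 8 lower on the signals as deposited and 2 higher and 9 lower after scaling to a common median. The count was 0 without either Tbk1-/- array or the WT mock array, 1 without the Ikbke-/- B-DNA array, 2 without the WT B-DNA array and 5 to 7 without any other. The test was added after the values were seen, and the median over all genes was 0.15. The interaction was negative for the 6 cartilage genes that stood high in Ikbke-/- cells, from -5.11 for Col2a1 and Col9a1 to -0.86 for Col9a2, and positive for Col10a1 (2.44) and Col15a1 (4.55). For Col12a1 and Col18a1, low in both genotypes without Tbk1, it was 0.17 ± 0.21 and 0.23 ± 0.29 and not called (limma, adjusted p = 0.622 and 0.645). Values of genes with floored arrays depend on the floor, and for Col9a2, Col9a3 and Col26a1 the sign was set by the filter. The Ikbke-/- level enters the interaction with a minus sign, so genes picked as high in those cells tend to come out negative. For Col9a1 and Col9a3 the interaction is the Ikbke-/- difference from WT, 5.11 and 3.16, with the sign turned. The negative values of the 6 cartilage genes are thus no separate support.

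The genes that make, cut and anchor collagen are given by list. Of 15 genes for modification and folding, such as the prolyl hydroxylase subunit P4ha1 and the chaperone Serpinh1, limma called 0 in Tbk1-/- cells, 0 in Ikbke-/- cells and 3 lower in Tbk1-/- Ikbke-/- cells, with medians of -0.05, 0.10 and -0.14. Of all genes 2.88%, 2.99% and 13.7% were called in these comparisons, and 5.24% were called lower in Tbk1-/- Ikbke-/- cells. At an unadjusted p under 0.05 there were 1, 6 and 6 of the 15. Among 9 tested genes for processing and cross-linking, 1 lower was called in Tbk1-/- cells, 1 higher and 2 lower in Ikbke-/- cells, and 1 higher and 3 lower in Tbk1-/- Ikbke-/- cells. Pcolce2, an enhancer of propeptide removal, read 61.4 and 69.8 in Tbk1-/- cells, 724 and 739.8 in Ikbke-/- cells, 118 and 135 in Tbk1-/- Ikbke-/- cells, against 262 and 303 in WT cells. It was called in all 3 genotypes (limma, adjusted p = 0.0147, 0.0116 and 0.00941) and, like the cartilage genes, was highest in Ikbke-/- cells. Loxl3, a lysyl oxidase, was 2-fold or more lower than WT at both treatments in Tbk1-/- cells, at -1.71, and not called (limma, adjusted p = 0.132).

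Genes for collagen breakdown and its inhibitors were called in 3 of 12 in Tbk1-/- cells (all lower), 2 in Ikbke-/- cells (1 higher) and 6 in Tbk1-/- Ikbke-/- cells (2 higher), where 2.88%, 2.99% and 13.7% of all genes were called. Ctsk, a collagen-cutting protease, read 69.1 and 68.8 in Tbk1-/- cells, 363 and 293 in Ikbke-/- cells, 37.4 and 134 in Tbk1-/- Ikbke-/- cells, against 558 and 519 in WT cells. Timp1, an inhibitor of matrix metalloproteinases, read 14577 and 17825 in Tbk1-/- cells, 15435 and 18256 in Ikbke-/- cells, 4109.6 and 4743 in Tbk1-/- Ikbke-/- cells, against 18076 and 17812 in WT cells, low in Tbk1-/- Ikbke-/- cells alone (-2.02 from WT, limma, adjusted p = 0.00446). The metalloproteinase Mmp3 ranged from 27.2 to 634 and Mmp13 from 3.54 to 808, both highest on a WT array. Of 5 collagen receptors 1 was called, lower in Tbk1-/- cells.

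Of 13 tested basement membrane genes other than collagens, limma called 1 higher and 1 lower in Tbk1-/- cells, 1 higher and 3 lower in Ikbke-/- cells and 4 higher and 0 lower in Tbk1-/- Ikbke-/- cells. Over all genes the shares called higher were 1.14%, 1.25% and 8.45%, and those called lower 1.73%, 1.75% and 5.24%. Fbln2, a fibulin, read 12520.0 and 11762 in Tbk1-/- cells, 1859.9 and 2368 in Ikbke-/- cells, 11023 and 10421 in Tbk1-/- Ikbke-/- cells, against 9514 and 10031 in WT cells, low in Ikbke-/- cells as Col4a5 was. Fbln1 read 517 and 416 in Tbk1-/- cells, 413 and 398 in Ikbke-/- cells, 2278 and 2472 in Tbk1-/- Ikbke-/- cells, against 532 and 572 in WT cells, high in Tbk1-/- Ikbke-/- cells as Col15a1 was. Nid2, which links laminin to type IV collagen, read 1059 and 1209 in Tbk1-/- cells, 3476 and 3019.8 in Ikbke-/- cells, 3000.4 and 3350.3 in Tbk1-/- Ikbke-/- cells, against 908 and 1005 in WT cells, high in both genotypes without Ikbke. Lama2, a laminin chain, was -1.56 from WT in Ikbke-/- cells (limma, adjusted p = 0.00981) and 0.73 in Tbk1-/- Ikbke-/- cells (limma, adjusted p = 0.0252).

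Of 12 genes of the Tgf-beta and matrix response, limma called 2 lower in Tbk1-/- cells, 1 higher and 1 lower in Ikbke-/- cells and 1 higher and 6 lower in Tbk1-/- Ikbke-/- cells, where 2.88%, 2.99% and 13.7% of all genes were called. Ccn2, a matrix protein induced by Tgf-beta, read 13610.2 and 14468 in Tbk1-/- cells, 14537 and 11689 in Ikbke-/- cells, 608 and 998 in Tbk1-/- Ikbke-/- cells, against 14522 and 12047 in WT cells, a difference of -4.09 from WT in Tbk1-/- Ikbke-/- cells (limma, adjusted p = 0.00456). Its relative Ccn1 was -3.04 there (limma, adjusted p = 0.00446). Col1a1, Col1a2 and Col3a1 were not called in those cells. Eln, which encodes elastin, read 221 and 361 in Tbk1-/- cells, 835 and 768 in Ikbke-/- cells, 745 and 1428 in Tbk1-/- Ikbke-/- cells, against 2949 and 2905 in WT cells, highest on both WT arrays. Tgfbi, a secreted matrix protein, was 1.60 and 2.19 from WT in Ikbke-/- and Tbk1-/- Ikbke-/- cells (limma, adjusted p = 0.0392 and 0.00952).

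Other probe sets of the same genes were read as a check of the main ones. A second probe set of Col9a1 read 204 and 269.6 in Tbk1-/- cells, 2565 and 1959 in Ikbke-/- cells, 259.9 and 261 in Tbk1-/- Ikbke-/- cells, against 329 and 275 in WT cells, and one of Col11a1 read 1795 and 1800.1 in Tbk1-/- cells, 5354 and 4376 in Ikbke-/- cells, 1049.5 and 1125 in Tbk1-/- Ikbke-/- cells, against 1544 and 1505 in WT cells, both highest in Ikbke-/- cells. The 2 further probe sets of Col9a3 were under the floor on every array, as was the second of Col5a3. A second Col4a6 probe set read 256 and 295 in Tbk1-/- cells, 36.6 and 3.79 in Ikbke-/- cells, 185 and 195 in Tbk1-/- Ikbke-/- cells, against 16.8 and 19.2 in WT cells, over the floor on the 4 arrays without Tbk1 and under it on the other 4. Second probe sets of Col4a5, Col8a1, Col14a1 and Col18a1 had the same signs of difference from WT as the first wherever the first was called.

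The remaining cell type lists were read in the same way. The summed signal of 9 fibroblast markers ran from 38679 to 58889 over the arrays and that of 8 smooth muscle markers from 47861 to 74504. Sums for 5 osteoblast markers ran from 378 to 911, for 9 skeletal and cardiac muscle markers from 376 to 1015, for 9 endothelial markers from 769 to 1847, for 9 epithelial markers from 661 to 1614, for 6 neural and glial markers from 663 to 890.0 and for 5 adipocyte markers from 434 to 1723.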

How the data were processed

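The authors deposited 1 linear signal intensity for each probe set, computed with MAS5 (Microarray Suite 5.0) per the submitters' processing notes, where GeneSpring appears with no role. The array type in the design text differs from that of the probe set names. Of 22690 probe sets, 64 controls were left out, 20380 had 1 gene symbol, 691 several and 1555 none. Intensity was not level between arrays (2% trimmed means of 140 to 255), so each array was multiplied by 1.96 to 3.58 to reach 500. The floor was the 40th percentile, 122, and genes under it on every array were left out of tests.

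limma 3.58.1 in R 4.3.3 (lmFit, eBayes, 2-sided) was fitted to floored log2 signals of 9626 genes with genotype and treatment as terms, 3 residual and 2.05 prior degrees of freedom; its error is the spread of the treatment difference between genotypes. The fit was tested on simulated data. Between single arrays a 2-fold ratio was counted where the brighter signal was at least 244.3, with no test. Named with all values are collagens called in any comparison, and the 2 brightest of each class; of each companion list, up to 4 genes that differed 2-fold from WT at both treatments. The collagens and lists, and the comparison of Tbk1-/- Ikbke-/- with Ikbke-/- cells and the interaction, were chosen with earlier results of these data known. Alternatives varied the scaling, floor, filter, probe sets, fit and arrays. The number of arrays limits the precision.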

Additional observations from a re-analysis of the deposited data

Results flagged for a closer look

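For 14 collagens the difference between cells without and with Tbk1 was unlike in cells without Ikbke and cells with it, by the interaction term of the limma fit. Each value below is that interaction on the log2 scale. Of the cartilage genes, Col2a1 stood at -5.11, Col9a1 at -5.11, Col9a2 at -0.86, Col9a3 at -3.16, Col11a1 at -2.11 and Col11a2 at -2.93, all negative, and Col10a1 at 2.44. Of the other genes, Col14a1 stood at -1.20, Col26a1 at -1.31 and Col6a3 at -0.85. Positive values were those of Col15a1 (4.55), Col3a1 (1.15), Col4a1 (0.98) and Col5a1 (0.93). The median over all 9626 genes was 0.15, and 14.6% of them were called. Col9a1, Col9a2, Col9a3, Col10a1, Col11a2, Col15a1 and Col26a1 have arrays under the floor, on which their values depend. For Col9a2, Col9a3 and Col26a1 the sign was set by the filter. The Ikbke-/- level enters the interaction with a minus sign. The negative values of cartilage genes high in those cells are thus no separate support.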

How the results depend on the processing

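Called collagens kept their direction in every alternative run, with 1 exception: Col5a1 between Tbk1-/- Ikbke-/- and Ikbke-/- cells turned from 0.53 to -0.027 on the signals as deposited, where the median of all genes was -0.27. Without further scaling the called collagens numbered 3 in Tbk1-/- cells and 8 in Ikbke-/- cells against WT, and 2 (Col16a1 and Col18a1, both lower) for B-DNA over mock in WT cells at 2-fold. Scaling to a common median gave 5 collagens 2-fold from WT in Tbk1-/- cells (Col4a6, Col10a1, Col12a1, Col15a1 and Col18a1), against 8. The additive fit gave 0 both for loss of Tbk1 and for loss of Ikbke, with 1 residual degree of freedom. Here and below, loss of a gene means the arrays without it against those with it, averaged over the other gene. The interaction called 9 with the floor at the 20th percentile and 9 with no floor. Leaving out 1 array at a time, limma called 0 to 3 collagens in Tbk1-/- cells, 0 to 5 in Ikbke-/- cells, 0 to 9 in Tbk1-/- Ikbke-/- cells, 1 to 8 for loss of Tbk1, 0 to 6 for loss of Ikbke, 3 to 14 between Tbk1-/- Ikbke-/- and Ikbke-/- cells and 0 to 7 for the interaction; the fit then has fewer arrays. Over the single collagens of these comparisons, 3446 values stayed on their side of the threshold, 666 lost a call, 47 gained one and 1 reversed. Over all genes the calls in the other alternatives ran from 119 to 293 (277 in the text) in Tbk1-/- cells, 91 to 319 (288) in Ikbke-/- cells, 641 to 1406 (1317) in Tbk1-/- Ikbke-/- cells, 0 to 848 (761) for loss of Tbk1, 0 to 1002 (870.0) for loss of Ikbke, 982 to 1963 (1875) between Tbk1-/- Ikbke-/- and Ikbke-/- cells and 726 to 1533 (1409) for the interaction. Fewer arrays aside, the cause of these moves was not tested. No paired analysis was possible because the labels give no replicate numbers and each combination has 1 array; the fit itself sets genotypes against each other within a treatment.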
